A study of Mus musculus with 4 samples.

Results

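Potassium channels are the proteins through which potassium ions leave a cell, and in neurons they set the resting potential, end action potentials and pace repetitive firing. Voltage-gated channels open on depolarization, calcium-activated channels when internal calcium rises, inward rectifiers and two-pore-domain channels carry current near rest, and accessory subunits tune the gating and surface delivery of the pore proteins. An olfactory sensory neuron turns odorant binding into a depolarization of its cilia, and potassium channels of its soma and axon shape the spikes that follow. The RNA of these channels was measured in mature olfactory sensory neurons sorted from mice of the Nd1 line, which expresses double-stranded RNA encoded in the genome and shows neurodegeneration according to the series' own title and design text, and from control mice.

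The members are the genes whose symbol begins with Kcn, then lower-case letters and a number, in the authors' deposited table. The rule matched 116 of 28168 loci, and keeping the locus of highest mean level for each of 7 symbols with several loci left 94 genes, of which 93 belong to 20 channel or accessory subfamilies and 1, Kcnq1ot1, is a noncoding antisense RNA. The data are 4 libraries of polyadenylated RNA, 2 per group, from olfactory epithelium dissociated with papain. All mice carried OMP-IRES-GFP+/-, a fluorescent reporter at the olfactory marker protein gene. Both Nd1 libraries had the genotype Nd1+/- with OMP-IRES-tTA+/-, a transcriptional activator at the same gene, at 212 days of age (replicate 1) and 87 days (replicate 2). The control of replicate 1 (212 days) was Nd1+/- with OMP-IRES-tTA-/-, so it carried the insertion without the activator, and the control of replicate 2 (87 days) was Nd1-/- with OMP-IRES-tTA+/-, so it carried the activator without the insertion. How many mice entered a library is not stated.

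Every level below is the authors' single pooled value per group in FPKM, fragments per kilobase of transcript scaled to the mapped fragments, a scale on which genes of different length can be compared. With no value per library, neither a spread between replicates nor a read depth can be given, and the calls are those of the authors' Cuffdiff test at a q-value under 0.05. The verbs rose and fell are kept for genes that passed it, and log2 ratios are those of Nd1 over control FPKM. In bulk RNA, fewer cells of a type and less RNA per cell cannot be told apart.

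The sorted material carried the markers of its labelled cell type. The 16 mature neuron markers summed to 20693 FPKM in control and 9086 FPKM in Nd1, and 11 of the 13 tested fell. In contrast, the 14 immature neuron markers summed to 538 and 1009 FPKM and 11 of 13 tested rose. Over all tested loci 15.1% were called higher and 19.2% lower. The mature sum holds Omp, which carries the reporter and activator alleles (4087 and 605 FPKM), and Gnal, Gnb1 and Ric8b, whose tests failed. The sums of 8 sustentacular markers (101 and 70.1 FPKM), 5 horizontal basal cell markers (12.8 and 6.29 FPKM), 7 gland and respiratory markers (291 and 125 FPKM) and 7 microvillous cell markers (68.8 and 39.2 FPKM) were lower in Nd1. Among those tested, in that order, 4 of 8, 4 of 4, 7 of 7 and 3 of 5 fell. The microvillous marker Pou2f3 rose from 5.64 to 10.4 FPKM. Macrophage markers summed to 1.94 and 1.58 FPKM, muscle markers to 2.79 and 2.80 FPKM, cycling and globose basal cell markers to 10.9 and 11.5 FPKM, endothelial and mural markers to 12.7 and 9.62 FPKM, glial markers to 15.3 and 19.2 FPKM, and 3 erythroid markers to 23.7 and 12.6 FPKM. The part of these shifts in the channel results was not tested.

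Potassium channel RNA moved in both directions in Nd1. Of the 21 tested genes with a mean of 10 FPKM or more, 11 fell, 2 of them by at least 2-fold, and 2 rose. Rises of at least 2-fold were called in 11 members, all under 2 FPKM in control, and ran from 2.73-fold to 11.9-fold. Among all tested loci 7.09% were called higher by at least 2-fold. Of other members under 2 FPKM in control, Kcnh1 fell 3.05-fold and Kcnk5 fell 2.67-fold. Of the 94 genes 52 were tested in the authors' deposited table, and 15 rose, 20 fell and 17 did not pass, so 67.3% of the tested members were called. Over all 14841 tested loci 34.4% were called, 15.1% higher and 19.2% lower, and over the 13802 tested loci other than odorant receptors 30.3% were called. The test failed for 2 genes, among them Kcnj13. The 40 genes that were not tested lay at or under 0.300 FPKM in both groups, and 7 of them were listed at 0 in both. On the log2(FPKM + 1) scale the median of the 47 tested members whose mean reached 0.5 FPKM was -0.14, beside -0.060 over the 13727 tested loci passing the same filter. The summed FPKM of all 94 genes was 1692 in control and 1383 in Nd1, 1.22-fold lower. The sum over all tested loci was itself 1.09-fold lower in Nd1.

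**Figure D1:**
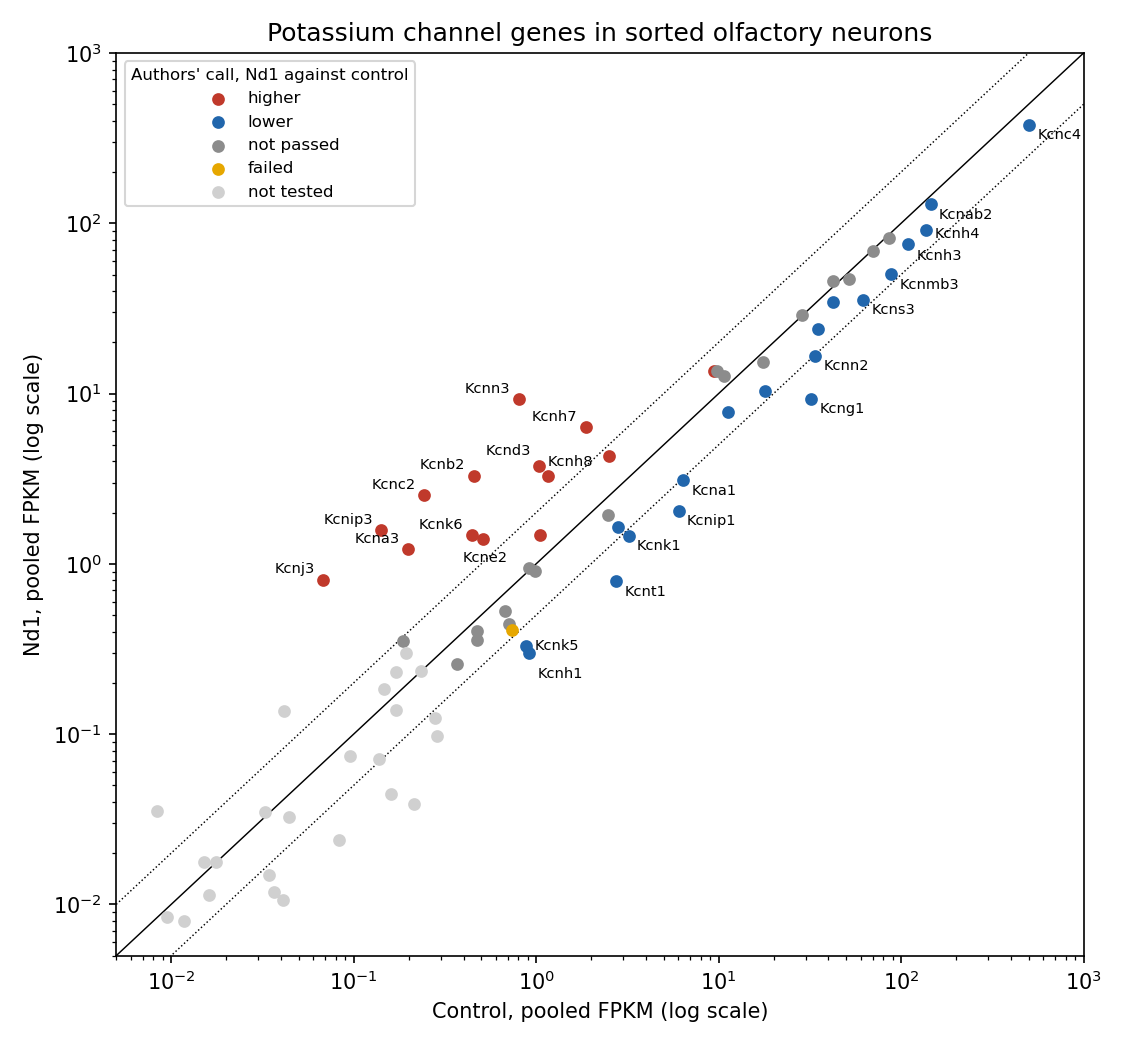
Pooled FPKM of the potassium channel genes described here that were above 0 in both groups, control on the x axis and Nd1 on the y axis, both on log scales. Each point is a gene coloured by the authors' call, the solid line marks equal levels and the dotted lines mark 2-fold differences. The genes called higher by at least 2-fold lie at control levels under 2 FPKM, and most genes above 10 FPKM lie on or just under the line of equal levels.

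The calls are given here by the mean level of the gene over both groups. Those 2 rises and 11 falls at 10 FPKM or more stand beside 13.9% higher and 15.4% lower among tested loci of that level that are not odorant receptors. Of 16 members between 1 and 10 FPKM, 8 rose and 7 fell, beside 18.3% and 12.7% of such loci. Of 15 members under 1 FPKM, 5 rose and 2 fell, beside 18.1% and 13.7%. The median of that mean was 1.88 FPKM among members that rose and 17.4 FPKM among those that fell. These medians are descriptive, since no member at or under 0.300 FPKM in both groups was tested. Tested members under 0.300 FPKM in control could therefore only be higher in Nd1, as for Kcnj3, Kcnip3, Kcna3 and Kcnc2. These genes are among the rises of at least 2-fold. Changes of at least 2-fold were called higher in 11 members and lower in 8, against 7.09% and 9.39% of all tested loci, odorant receptors included. All 11 of the rises began under 2 FPKM in control. These rises start from 0.0679 FPKM (Kcnj3) to 1.87 FPKM (Kcnh7) in control, with no spread between libraries to set them against.

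**Figure D2:**
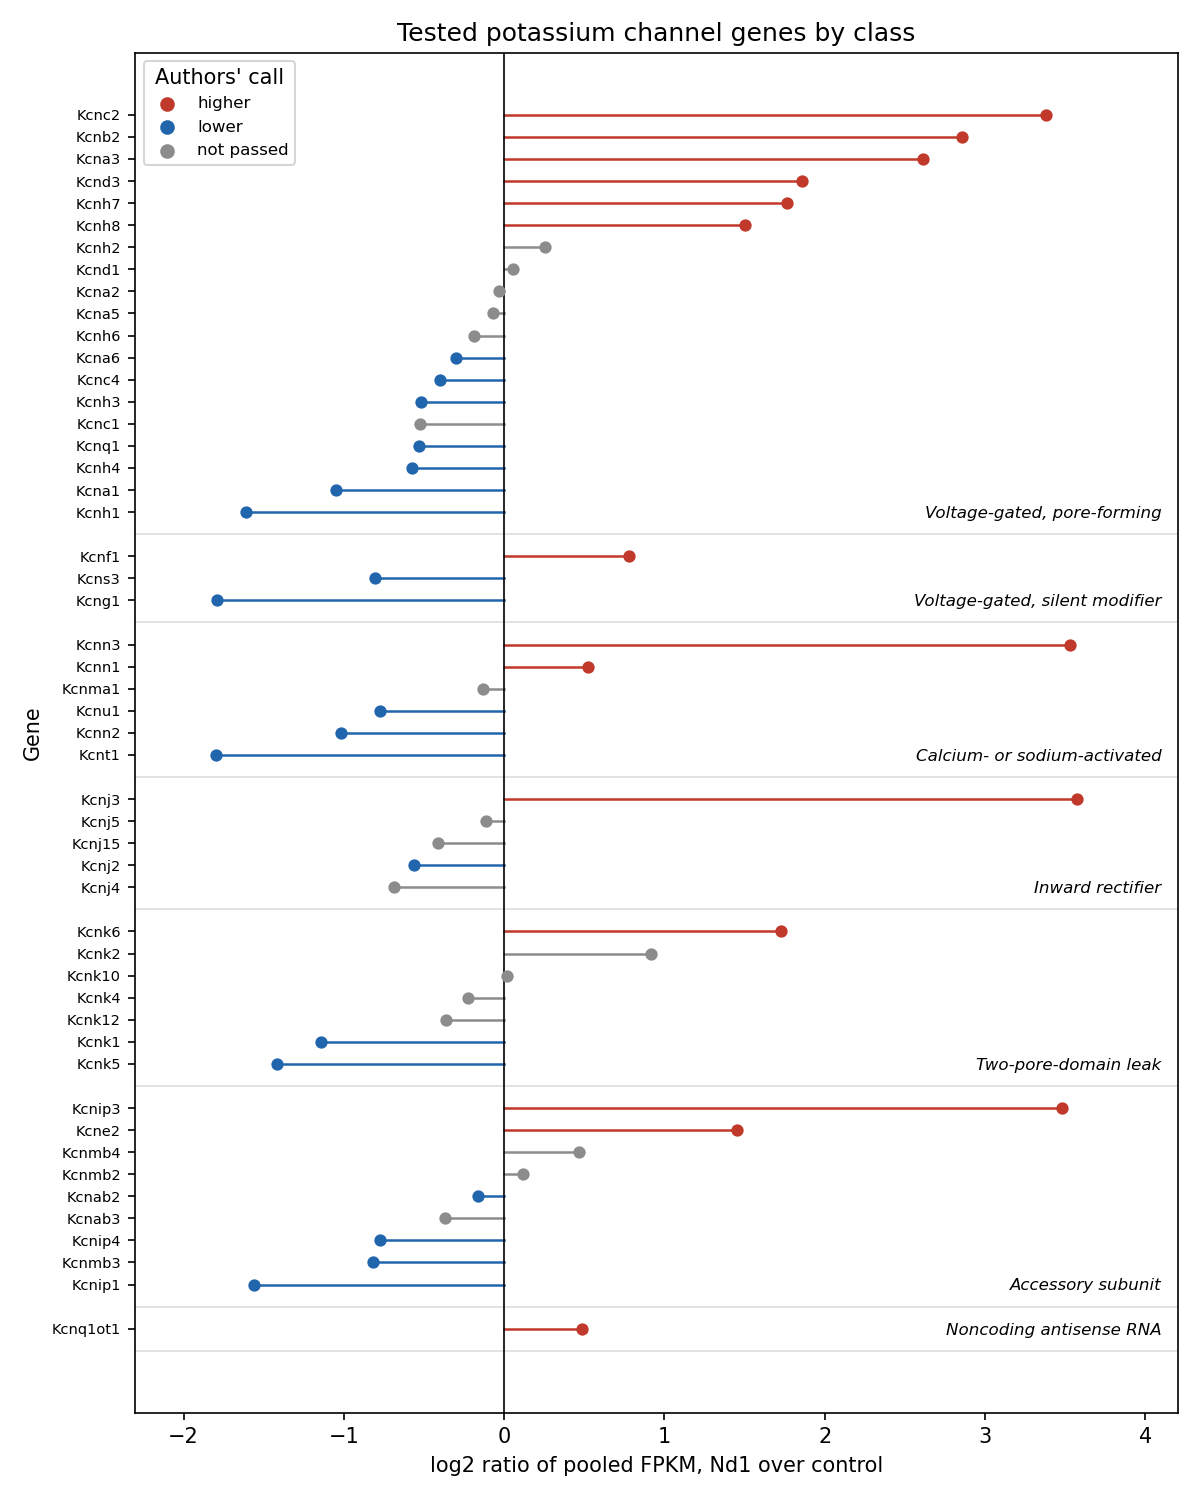
log2 ratio of pooled FPKM, Nd1 over control, for the tested potassium channel genes described here, grouped by class and coloured by the authors' call. Each class except the noncoding RNA holds genes called higher and genes called lower, and the ratios run from -1.80 for Kcnt1 to 3.57 for Kcnj3.

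Voltage-gated pore-forming genes made up 65.3% of all potassium channel FPKM in control and 66.9% in Nd1. Among 21 tested 7 rose and 8 fell, so 71.4% were called, beside 67.3% of all tested members and 34.4% of all tested loci. One gene dominated. Kcnc4, which encodes the fast-inactivating channel Kv3.4 (mm9 chromosome 3, 107241221 to 107261816), stood at 502 FPKM in control and 380 FPKM in Nd1 and was the highest of the 94 genes in both groups, with 29.7% and 27.5% of their summed level. It fell 1.32-fold, with q = 0.0487 in the authors' deposited table, close to the threshold. A second locus with the same bounds and symbol also fell, from 454 to 319 FPKM (q = 0.00446 in the authors' deposited table). Without Kcnc4 the members' sum was 1190 FPKM in control and 1003 FPKM in Nd1.

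Kcnc2 and Kcnc1 of the same subfamily lay far below Kcnc4. Kcnc2, which encodes Kv3.2, a subunit known from fast-spiking neurons, rose 10.4-fold from 0.244 to 2.54 FPKM. Kcnc1 (0.370 and 0.257 FPKM) did not pass.

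The Kv1 genes encode low-threshold channels that limit firing and sit along axons. Of 5 tested 1 rose and 2 fell, beside 15.1% higher and 19.2% lower over all tested loci. Kcna5 stood at 85.6 and 81.5 FPKM and Kcna2 at 70.6 and 69.0 FPKM, and neither passed (q = 0.714 and 0.871 in the authors' deposited table). Kcna6 fell 1.23-fold from 42.2 to 34.3 FPKM. Kcna1, which encodes the axonal channel Kv1.1, fell 2.07-fold from 6.41 to 3.10 FPKM. These 4 genes lie in 2 clusters of neighbours. Kcna5, Kcna1 and Kcna6 follow each other on mm9 chromosome 6 between 126482569 and 126690692, and within that cluster Kcna5 did not pass while both neighbours fell. Kcna2 lies beside Kcna3 on chromosome 3.

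Kcna3, which encodes Kv1.3, a channel of lymphocytes and microglia that is also expressed in olfactory bulb neurons, rose 6.12-fold from 0.20 to 1.22 FPKM. The lymphocyte list holds Kcna3 and Kcnn4 and 8 other genes. Only 2 of those 8 were tested, and of these none rose and 1 fell. Over all tested loci 15.1% were higher and 19.2% lower. The 8 genes summed to 1.02 FPKM in control and 0.265 FPKM in Nd1, with Cd3e at 0 and 0.0247 FPKM and Cd8a at 0.0127 FPKM and 0. The table gives Kcna3 wide bounds (chromosome 3, 106737300 to 106901319), which it shares with 2 entries of AI504432, at 0.410 and 1.31 FPKM and at 0.0815 and 0.242 FPKM. Whether reads of these transcripts entered its value was not tested.

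Kcnb2 and the auxiliary subunit gene Amigo1 rose, while 2 of the 3 tested silent subunits that assemble with Kv2 channels fell. Over all tested loci 15.1% were called higher and 19.2% lower. Kcnb2, which encodes Kv2.2, rose 7.23-fold from 0.455 to 3.29 FPKM. Amigo1, an adhesion protein that is an auxiliary subunit of Kv2 channels, also rose, from 30.1 to 35.0 FPKM.

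Silent modifiers form no channel alone and change the gating of Kv2. Their summed level was 96.9 FPKM in control and 49.2 FPKM in Nd1, 1.97-fold lower, the steepest fall in sum of the 6 classes under the deposited scale and under each of 3 other scalings. Kcns3 (Kv9.3) fell 1.75-fold from 62.2 to 35.6 FPKM. Kcng1 (Kv6.1) fell 3.45-fold from 32.1 to 9.30 FPKM, the largest fold fall of any member above 10 FPKM in mean. Kcnf1 (Kv5.1) rose 1.72-fold, from 2.50 to 4.29 FPKM. The remaining 7 silent modifiers were not tested.

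**Figure D3:**
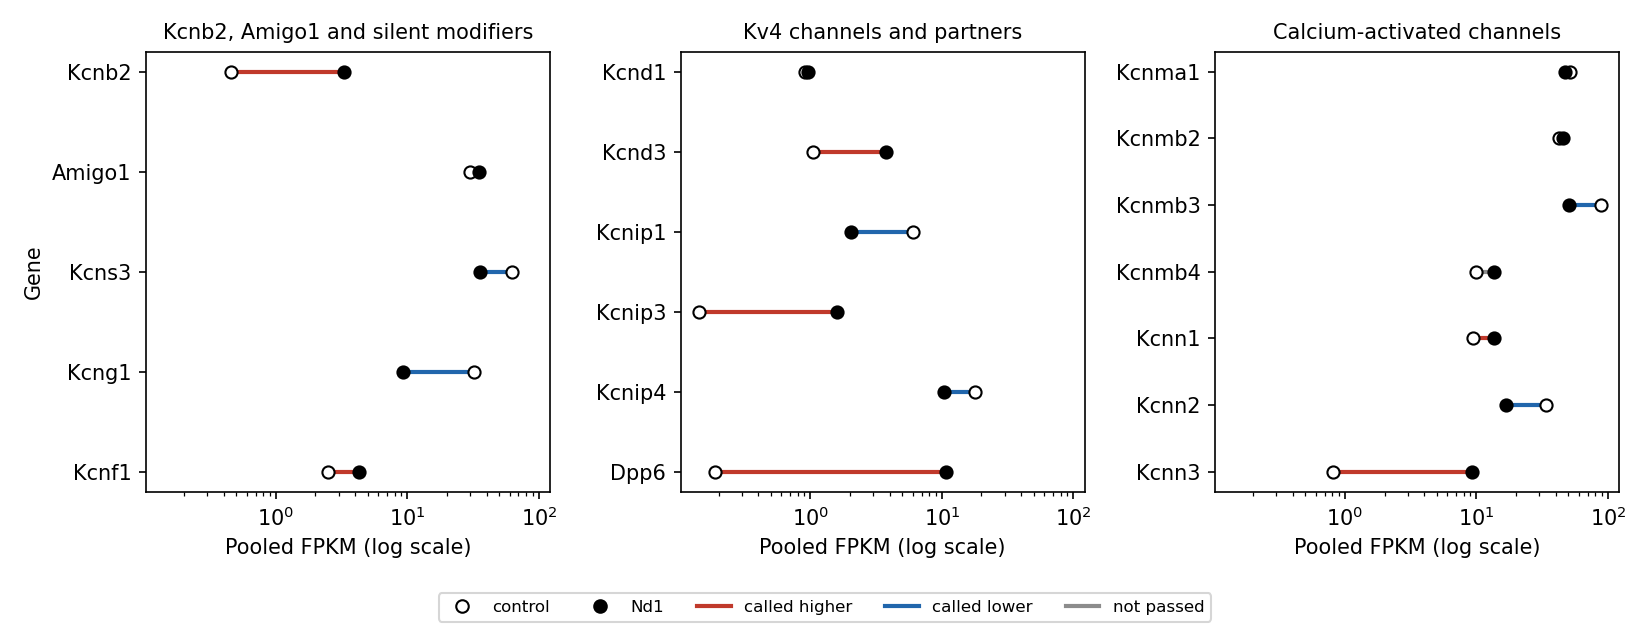
Pooled FPKM on a log axis in control (open circles) and Nd1 (filled circles) for Kcnb2 with Amigo1 and silent modifiers, Kv4 channels with their partners, and calcium-activated channels, with lines coloured by the authors' call. Kcng1 and Kcns3 move left while Kcnb2 moves right, Dpp6 and Kcnip3 move right while Kcnip1 and Kcnip4 move left, and Kcnn3 nears the level of Kcnn1 and Kcnn2.

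Kv4 channels carry the A-type current, a transient current that delays firing, and work in a complex with KChIP calcium sensors and DPP-like proteins. Kcnd3, which encodes Kv4.3, rose 3.62-fold from 1.04 to 3.78 FPKM, Kcnd1 did not pass (0.913 and 0.950 FPKM) and Kcnd2 was not tested (0.0413 and 0.138 FPKM). Among the KChIP genes, Kcnip4 fell 1.71-fold from 17.9 to 10.4 FPKM and Kcnip1 fell 2.94-fold from 6.04 to 2.05 FPKM. Kcnip3, whose product is also described as the transcriptional repressor DREAM, rose 11.1-fold from 0.142 to 1.58 FPKM. Dpp6, the DPP-like partner, rose from 0.189 to 10.7 FPKM, a log2 ratio of 5.82. The pore genes of this complex were low in both groups, with a summed level of 2.00 FPKM in control and 4.86 FPKM in Nd1. Kcnip1 shares its bounds with Lcp2, an adaptor of immune cells at 5.25 and 2.23 FPKM, and whether reads were shared between them was not tested.

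The Kcnh genes encode the EAG, ERG and ELK channels, and 5 of the 7 tested were called. That stands beside 67.3% of all tested members and 34.4% of all tested loci. Kcnh4 and Kcnh3, both ELK channels open near rest, were the highest. Kcnh4 fell 1.49-fold from 137 to 91.8 FPKM and Kcnh3 fell 1.43-fold from 109 to 76.0 FPKM, and they made up 49.2% and 39.2% of the summed Kcnh level in control. Kcnh3 shares its bounds with Mcrs1, at 13.1 and 11.6 FPKM. Their relative Kcnh8 of the ELK branch rose 2.84-fold from 1.16 to 3.28 FPKM. Among the ERG genes, Kcnh7 rose 3.40-fold from 1.87 to 6.34 FPKM, while Kcnh6 (17.5 and 15.4 FPKM) and Kcnh2 (10.7 and 12.7 FPKM) did not pass. The EAG gene Kcnh1 fell 3.05-fold from 0.918 to 0.301 FPKM.

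Kcnq1, known from heart muscle and epithelia, fell 1.44-fold from 11.2 to 7.76 FPKM. Kcnq3, a subunit of the M-current that damps repetitive firing, was not tested (0.170 and 0.230 FPKM), nor was Kcnq5 (0.0151 and 0.0177 FPKM). Kcnq1ot1, the imprinted RNA read from the opposite strand of Kcnq1, rose 1.40-fold from 1.05 to 1.47 FPKM. Both carry the same bounds in the table (chromosome 7, 150293159 to 150612947), and since strand-specific counting is not stated, reads of the 2 genes cannot be told apart with certainty.

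The small-conductance calcium-activated channels, which produce the afterhyperpolarization that follows spikes, were called in both directions. Whether both directions occurred in the same cells was not tested. Kcnn2 (SK2; chromosome 18, 45428514 to 46056163) fell 2.02-fold from 33.8 to 16.7 FPKM, and shares its bounds with A330093E20Rik, at 2.83 and 1.87 FPKM. Kcnn3 (SK3; chromosome 3, 89324086 to 89476416) rose 11.5-fold from 0.804 to 9.29 FPKM and moved from rank 40 to rank 23. Kcnn1 (SK1) rose 1.44-fold from 9.47 to 13.6 FPKM. The sum of the 4 Kcnn genes was 44.2 FPKM in control and 39.8 FPKM in Nd1. That is 1.11-fold lower, beside a sum over all tested loci that was 1.09-fold lower. Within the Kcnn sum the share of Kcnn2 went from 76.4% to 42.0%. That of Kcnn1 went from 21.4% to 34.3% and that of Kcnn3 from 1.82% to 23.4%. Kcnn4, the form of blood and epithelial cells, was not tested (0.170 and 0.139 FPKM).

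The large-conductance channel BK is opened jointly by calcium and voltage. Of its 4 tested genes 1 was called, the beta subunit Kcnmb3, beside 34.4% of all tested loci. Kcnma1, the pore gene, stood at 51.6 and 47.0 FPKM and did not pass (q = 0.0881 in the authors' deposited table). Kcnmb3 fell 1.76-fold from 88.6 to 50.3 FPKM. Kcnmb2, which confers inactivation, did not pass (42.1 and 45.6 FPKM), nor did the neuronal beta subunit Kcnmb4 (9.84 and 13.6 FPKM, q = 0.0552 in the authors' deposited table). Of the summed Kcnmb level, Kcnmb3 held 63.0% in control and 45.9% in Nd1. The sodium-activated channel gene Kcnt1 fell 3.47-fold from 2.75 to 0.793 FPKM, and Kcnu1, known as a sperm channel, fell 1.71-fold from 2.82 to 1.65 FPKM.

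Most inward rectifier RNA came from a single gene. Kcnj2, which encodes Kir2.1, a strong rectifier that holds cells near the potassium equilibrium potential, fell 1.48-fold from 35.2 to 23.8 FPKM and held 90.1% of the summed Kcnj level in control and 86.7% in Nd1. Kcnj3, a subunit of channels gated by G protein beta-gamma, rose 11.9-fold, from 0.0679 to 0.808 FPKM. Its partner Kcnj5 did not pass (0.987 and 0.911 FPKM). Kcnj4 (0.710 and 0.441 FPKM) and Kcnj15 (0.473 and 0.355 FPKM) did not pass, the test of Kcnj13 failed (0.738 and 0.408 FPKM), and the other 9 of 15 were not tested. Among those 9 were Kcnj10 and Kcnj16, known from glia and epithelia, at no more than 0.285 FPKM, and the pericyte gene Kcnj8, at 0.0155 FPKM in control and listed at 0 in Nd1.

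Two-pore-domain channels provide background leak, and most of their RNA came from 1 gene that did not pass. Kcnk10, which encodes TREK-2, a channel gated by stretch and lipids, stood at 28.5 and 28.8 FPKM (q = 0.914 in the authors' deposited table), with 81.7% and 85.5% of the summed Kcnk level. It has 16 loci in the table, and 3 of the others were listed at 0 in control and above 0 in Nd1, none of which passed. Kcnk1 (TWIK-1) fell 2.21-fold from 3.22 to 1.46 FPKM and Kcnk5 (TASK-2) fell 2.67-fold from 0.880 to 0.330 FPKM. Both are known from epithelia as well as other tissues. The summed levels of the sustentacular, horizontal basal and gland markers were lower in Nd1 too, as given above. Of the 8 sustentacular markers, however, 4 fell and 4 did not pass. The part of such epithelial cells in the falls of Kcnk1 and Kcnk5 was not tested. Kcnk6 (TWIK-2) rose 3.31-fold from 0.445 to 1.47 FPKM.

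Of the remaining accessory subunits, Kcnab2, the beta subunit that assembles with Kv1 channels, ranked 2 among all members in both groups. It fell 1.12-fold, from 145 to 130 FPKM (q = 0.0305 in the authors' deposited table), and scaling both groups to equal totals without odorant receptors brought its log2 ratio from -0.16 to -0.058. Kcnab3 did not pass (2.48 and 1.93 FPKM). Kcne2, a single-span subunit that modifies several voltage-gated channels, rose 2.73-fold from 0.512 to 1.40 FPKM, and the other 4 Kcne genes were not tested.

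**Figure D4:**
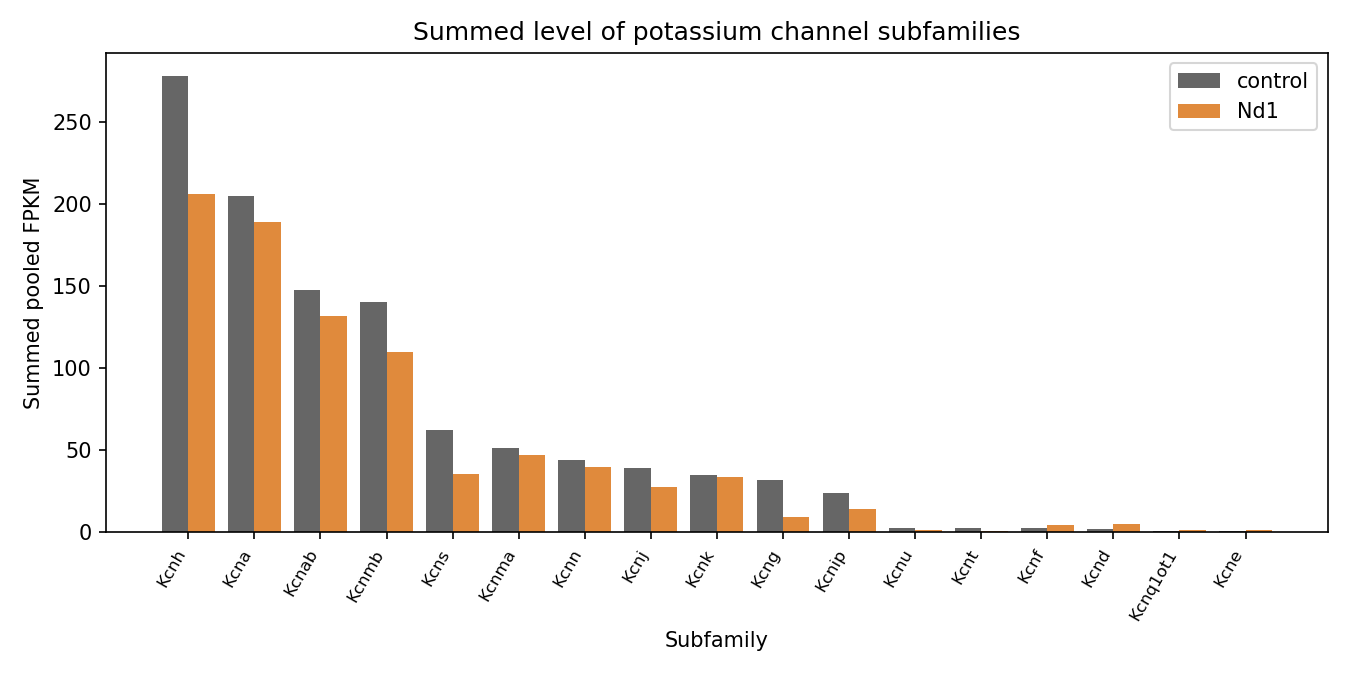
Summed pooled FPKM of the members of the subfamilies shown in control (grey) and Nd1 (orange), ordered by the control sum, with no error bars because there is 1 value per group. Kcnb, Kcnc and Kcnq are not drawn, and Kcnc would exceed all bars, since Kcnc4 alone stood at 502 and 380 FPKM. Kcnh had 278 and 206 FPKM, Kcna had 205 and 189 FPKM, and Kcng shows the contrast of 32.2 and 9.31 FPKM.

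The sequence around the start of a gene is shown for 4 members. Kcnc2, Kcnip3 and Kcnd3 rose from low levels, and Kcnc4, the most abundant, fell. All 3 risen genes shown hold the E-box, against 5 of the 12 risen members with a listed window, so they do not represent the risen members. RefSeq lists 4 windows for Kcnc2 and 3 for Kcnip3, and 1 window was chosen for each because it holds the marked letters. All 4 Kcnc2 windows hold the E-box and 2 hold the interferon core, while 1 of the 3 Kcnip3 windows holds the E-box. Each is 300 bases, 250 before to 50 after the annotated start, read 5′ to 3′ on the strand of the gene, from RefSeq on GRCm38.p6, another build than the mm9 of the table. Capitals mark the E-box CAGCTG, a form of the site bound by neuronal bHLH factors, and GAAA, any 2 bases, GAAA, the core of the interferon response element. The windows are chr10:112270871-112271170 (plus strand) for Kcnc2, chr2:127522045-127522344 (minus strand) for Kcnip3, chr3:105451640-105451939 (plus strand) for Kcnd3 and chr3:107458849-107459148 (minus strand) for Kcnc4.
Kcnc2: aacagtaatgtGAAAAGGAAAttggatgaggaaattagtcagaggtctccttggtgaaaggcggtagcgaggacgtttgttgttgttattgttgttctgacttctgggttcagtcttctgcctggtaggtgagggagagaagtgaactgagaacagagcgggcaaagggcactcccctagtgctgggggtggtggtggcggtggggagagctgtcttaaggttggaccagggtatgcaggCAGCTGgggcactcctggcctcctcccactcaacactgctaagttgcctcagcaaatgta
Kcnip3: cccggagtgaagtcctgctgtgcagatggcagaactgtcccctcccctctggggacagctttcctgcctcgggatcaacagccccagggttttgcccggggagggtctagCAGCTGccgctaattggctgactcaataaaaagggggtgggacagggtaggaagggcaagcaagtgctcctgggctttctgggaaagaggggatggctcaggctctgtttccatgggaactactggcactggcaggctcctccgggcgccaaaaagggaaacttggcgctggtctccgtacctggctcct
Kcnd3: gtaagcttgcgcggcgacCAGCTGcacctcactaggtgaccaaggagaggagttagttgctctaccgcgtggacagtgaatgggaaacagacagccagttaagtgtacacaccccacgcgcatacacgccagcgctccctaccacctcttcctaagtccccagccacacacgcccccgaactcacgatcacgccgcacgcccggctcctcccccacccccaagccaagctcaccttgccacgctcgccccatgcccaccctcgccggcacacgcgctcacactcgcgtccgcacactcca
Kcnc4: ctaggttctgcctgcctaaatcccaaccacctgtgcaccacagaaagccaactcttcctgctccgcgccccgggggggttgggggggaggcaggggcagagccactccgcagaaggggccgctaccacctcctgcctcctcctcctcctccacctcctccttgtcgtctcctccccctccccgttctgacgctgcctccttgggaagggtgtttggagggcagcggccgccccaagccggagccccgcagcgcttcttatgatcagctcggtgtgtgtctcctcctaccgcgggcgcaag

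The E-box letters stood in at least 1 start window of 5 of the 12 risen members with a listed window, namely Kcnc2, Kcnd3, Kcnip3, Kcnj3 and Kcnn1, and of 2 of the 12 fallen ones, Kcnip1 and Kcnj2. Over all 32851 windows of this length 16.3% held it, and a gene with several windows has more chances to hold it. The interferon core stood in 1 of the risen members, Kcnc2, and in none of the fallen, beside 3.44% of all windows. The palindrome TCCC, any 2 bases, GGGA, a form of the site of the olfactory factor Ebf (0.904% of all windows), and the homeodomain letters TAATTA (5.29%) stood in none of the 24. The E-box, homeodomain and Ebf letters read the same on both strands, and the interferon core was searched on both. A match describes letters in the window and shows no binding.

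Genes that work with potassium channels but have other names were counted from 4 lists. Their counts stand beside 15.1% called higher and 19.2% lower over all tested loci, and a median of -0.060 over those that passed the filter. The lists hold no odorant receptors, and without those 2241 of 13802 tested loci were higher and 1941 lower (median -0.037). Of 8 tested accessory partners 5 rose and none fell, with a median of 0.31 on the log2(FPKM + 1) scale. Beside Dpp6 and Amigo1 these were Fhl1, a LIM protein that binds Kv1 channels (6.37 to 48.4 FPKM), and the ankyrins Ank2 (122 to 161 FPKM) and Ank3 (103 to 112 FPKM), which anchor channels to the membrane skeleton. Abcc8 and Abcc9, the sulfonylurea receptors of ATP-sensitive channels, were not tested, at no more than 0.0418 FPKM in either group.

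Of 12 tested clustering and anchoring genes 6 rose and 1 fell (median 0.11), against the same 15.1% and 19.2% of all tested loci. Cntnap2, which gathers Kv1 channels beside nodes of Ranvier, rose from 0.251 to 1.51 FPKM, the secreted Lgi1 from 0.215 to 0.856 FPKM and the scaffold Dlg4 from 32.0 to 57.4 FPKM, while its relative Dlg2 fell from 52.0 to 33.1 FPKM. Of 13 tested genes for channel turnover and gating 1 rose and 4 fell (median -0.16), read against the same shares. Nedd4, a ubiquitin ligase, rose from 21.9 to 35.7 FPKM, and the falls included the transcriptional repressor Rest (2.25 to 1.13 FPKM), the kinase Sgk1 (26.2 to 15.2 FPKM) and the G protein subunit Gng13 (1619 to 1086 FPKM), which is also among the mature neuron markers.

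Of 17 tested pumps and cotransporters that move potassium, 7 rose and 2 fell (median 0.27), where 15.1% of all tested loci were higher and 19.2% lower. The pump subunit Atp1b1 (665 and 740 FPKM) did not pass. Fxyd7, a brain regulator of the sodium pump, rose from 1.17 to 25.0 FPKM and the potassium-dependent exchanger Slc24a3 from 0.181 to 1.33 FPKM. Fxyd1 rose from 1.63 to 3.76 FPKM. Lower calls went to Fxyd2, a pump regulator best known from kidney (19.1 to 9.90 FPKM), and to Slc24a4, the exchanger of olfactory cilia and one of the mature neuron markers (85.4 to 60.9 FPKM).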

How the data were processed

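RNA of sorted mature olfactory sensory neurons was sequenced in 2 control and 2 Nd1 libraries. Alignment and testing tools are listed as Bowtie and Cuffdiff 1.3.0, with build mm9, per the submitters' processing notes. No source used here gives the annotation, filters or strand setting. The authors deposited 1 table with a pooled FPKM per group, and, per the file headers, a p-value, a q-value and a log2 fold change comparing Nd1 to control. FPKM depends on the fragments of all other genes, so a fall of abundant RNAs can raise the rest. Tests exist for 14841 loci, failed for 616 and were not made for 12711. Recomputed log2 ratios differed from the listed ones by at most 1.38e-05 where both groups were above 0. The listed q-values equal a Benjamini-Hochberg adjustment over tested loci within 1% in 100.0% of them. Depth is unknown, and no intervals are given. Starts had 1 added to read as 1-based.

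With 1 value per group no test was run, and counts were made from the authors' q-values with Python 3.11.15 and pandas 2.3.3. The counting and median steps were tested on simulated data. The members, lists, classes and motifs were chosen with earlier results of these data known. Genes named are the called members of at least 1 FPKM in a group, the highest of each subfamily, uncalled members of at least 5 FPKM, and up to 4 called genes of each of 4 partner lists. Some genes that the rule names are not reported here. Other genes were added to complete a subfamily or describe a marker list after their values were seen. List genes represented by several loci took the locus of highest mean. Of the 94 members 69 matched the RefSeq start windows. Alternatives were q under 0.01, a minimum mean of 1 FPKM, all loci per symbol, joined loci left out, a 2-fold minimum, a pseudocount of 0.1, no filter on low values, and 3 scalings.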

Additional observations from a re-analysis of the deposited data

How the results depend on the processing

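No paired analysis was possible because the table holds 1 pooled value per group, and for the same reason leaving out each replicate was not run. The counts of 15 higher and 20 lower members became 15 and 16 at q under 0.01, 10 and 18 with a mean of at least 1 FPKM, and 16 and 22 over all matching loci. No member joins several symbols, so leaving such loci out changed nothing. Requiring 2-fold left 11 higher and 8 lower, the second by construction, since most falls were smaller. The median of -0.14 was -0.16 with a pseudocount of 0.1, -0.12 without the filter and -0.093 centred on the median of tested loci. It was -0.058 with equal totals without odorant receptors and -0.086 after quantile normalization, where the medians over all tested loci were 0.031 and 0.0051. The log2 ratio of the summed FPKM of all members was -0.29 as deposited and -0.19 with equal totals. It was -0.22 both when centred and after quantile normalization. The log2 ratio of the summed two-pore-domain genes, -0.050 as deposited, turned to 0.054 with equal totals, 0.019 when centred and 0.016 after quantile normalization, as follows from the scaling of a ratio near 0. None of the 32 named members that were called changed sign under these 3 scalings, which cannot remake the calls. After quantile normalization Kcnc4 stood at -0.24 in place of -0.40. Neither the depth nor the spread between libraries is known for the rises from control levels under 1 FPKM.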
